A study of Mus musculus with 12 samples.

Results

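Intragenic long noncoding RNAs (lncRNAs) are transcripts annotated inside the body of another gene. The authors' table held 249 of them among 15558 lncRNAs. The 188 described here were the entries on the autosomes whose identifier begins with ncRNA_intra_, after leaving out 10 regions of the mouse genome build mm9 that hold clusters of liver genes. The left-out regions held 59 intragenic entries, and 2 more lay on chromosomes X or Y.

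A read from an intragenic lncRNA can be hard to assign, because the unspliced RNA of the surrounding gene can cover the same bases. In a library that does not keep the strand, reads from the lncRNA and from a transcript on the opposite strand cannot be told apart. Nuclear RNA holds unspliced and newly made RNA at a higher share than whole tissue does. TCPOBOP is an agonist of the nuclear receptor CAR, and PCN is an agonist of the nuclear receptor PXR. Both receptors act in hepatocytes and switch on genes of drug and steroid metabolism.

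Polyadenylated liver RNA of CD-1 mice, an outbred stock, was sequenced at 8 weeks of age after injection of TCPOBOP or PCN, in 12 libraries of 8 groups. In experiment G81, pools of 6 male livers gave 4 whole-tissue libraries with the strand kept, for TCPOBOP and PCN at 3 h (11 AM) and at 6 h (2 PM). The same experiment gave a whole-tissue library without the strand, from 6 male livers 3 h after TCPOBOP, and a library labelled nuclear, without the strand, from 2 male livers 3 h after PCN. Nuclear RNA without the strand, 3 h after TCPOBOP, came from 3 female pools of 3 to 4 livers (experiment G86) and from 3 male pools of 4 livers (experiment G95). These were the replicated groups, and the other 6 groups were 1 library each. All the mice analysed had received an agonist, and vehicle libraries were not analysed here. The values are RPKM, reads per kilobase of transcript per 1000000 reads (M), and they stepped in whole reads, so that the reads behind each value were recovered. Where an entry's length was shorter than its span, the reads and the length given are the smallest that fit its values. Read totals ran from 21.9 to 40.3 M in 9 libraries and from 7.31 to 11.9 M in the 3 male nuclear pools. In bulk RNA, fewer cells of a type and less RNA per cell cannot be told apart, and markers of liver cell types could not be read because the table pairs no entry with a gene symbol.

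The library labelled nuclear PCN stood apart from the other nuclear libraries. Over the 104 tested members, its Spearman correlation was 0.85 with the unstranded whole-tissue library of its own experiment and 0.58 to 0.64 with the male nuclear pools. Its value lay nearer to the whole-tissue library than to the mean of the male nuclear pools for 66 of these 104 members (63.5%), and for 61.2% of 7401 tested lncRNAs. It is called the library labelled nuclear PCN throughout.

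The members formed 168 separate loci, counting members whose spans overlap as 1 locus. In all, 157 stood alone and 31 shared 11 loci, with at most 5 members in a locus. On the plus strand lay 99 and on the minus strand 88, and 1 had no strand given. Spans ran from 221 to 286337 bases with a median of 3238.5, and 127 members spanned under 10 kb, 26 spanned 10 to 50 kb and 35 spanned over 50 kb. The length that the RPKM values were divided by equalled the whole span for 78 members and was shorter for 76. A shorter length was found for 49.4% of the members above 0, 44.7% of the antisense lncRNAs and 16.3% of the intergenic lncRNAs. Spans over 10 kb made up 32.4% of the members, 25.4% of the antisense lncRNAs and 6.97% of the intergenic lncRNAs.

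Most members were read at low levels. Reads were found for 154 members in at least 1 library and for 51 members in every library, while 34 had none in any. Mean RPKM over the 12 libraries was at least 10 for 5 members, at least 1 for 35, between 0.1 and 1 for 60, and above 0 but under 0.1 for 59. A mean of at least 1 RPKM was reached by 18.6% of the members, by 21.3% of the antisense lncRNAs and by 2.73% of the intergenic lncRNAs. Above 0 in any library were 95 of 127 members under 10 kb, 25 of 26 between 10 and 50 kb and 34 of 35 over 50 kb. Over a length of 1 kb, a count of 0 allowed up to 3 reads, or 0.0745 to 0.410 RPKM depending on the library.

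Some of the silent members lay side by side. On chromosome 14, 13 members lay side by side at mm9 23327182-23360433, and 6 of them were above 0 with 9 reads in all 12 libraries together. On chromosome 10, 5 neighbours at 119152626-119199149 held 2 reads in all. On chromosome 8, 4 neighbours at 83996968-84007535, 4 at 84036745-84044612 and 2 at 84062462-84068317 held 0 reads in every library. No other chromosome held as many members as chromosome 8, with 24, followed by chromosome 14 with 21.

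The highest level belonged to ncRNA_intra_chr16_13383, a transcript of 572 bases on the minus strand of chromosome 16 (mm9 57391224-57391795). In stranded whole tissue it read 301 RPKM (4427 reads) and 268 RPKM (4268 reads) at 3 h and 6 h after TCPOBOP, and 295 RPKM (4333 reads) and 323 RPKM (4645 reads) at 3 h and 6 h after PCN. All 8 unstranded libraries held 0 reads of it. It made up 65.8% to 68.5% of the summed RPKM of the members in the stranded libraries, and the sum was 136 to 153 RPKM without it. The entry that overlaps it on the opposite strand, ncRNA_intra_chr16_13382, ends at the same base (57356472-57391795) and held 6 reads over the 4 stranded libraries and 0 in the unstranded ones. Whether the counting of overlapping strands has a part in the 0 reads was not tested.

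Next came ncRNA_intra_chr2_1052, which spans 55637 bases on the minus strand of chromosome 2 (5244786-5300422) with a counted length of 329 bases. It read 86.8, 84.3, 92.0 and 104 RPKM in stranded whole tissue (TCPOBOP at 3 h and 6 h, PCN at 3 h and 6 h), 86.1 RPKM in unstranded whole tissue and 78.4 RPKM in the library labelled nuclear PCN. The female nuclear pools read 33.5, 19.5 and 23.3 RPKM and the male nuclear pools 16.2, 17.9 and 13.0 RPKM. All 6 libraries of experiment G81 lay above all 6 nuclear pools, with the strand kept or not.

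Most of the other abundant members were highest in nuclear pools. On chromosome 17, ncRNA_intra_chr17_13866 (34113085-34135000, minus strand) read 2.57 to 4.09 RPKM in the stranded libraries, 15.3 RPKM in unstranded whole tissue and 21.9 RPKM in the library labelled nuclear PCN. Its female nuclear pools read 55.7, 34.1 and 47.2 RPKM and its male nuclear pools 27.0, 27.6 and 29.9 RPKM, without overlap between the sexes and without a call for sex. On chromosome 6, ncRNA_intra_chr6_5591 (121836168-121904118, plus strand) read 7.54, 23.7 and 14.1 RPKM in female and 32.6, 35.8 and 27.9 RPKM in male nuclear pools, against 2.08 to 10.9 RPKM in stranded whole tissue. On chromosome 9, ncRNA_intra_chr9_8386 (117974408-117978140, plus strand) varied least among these, from 2.43 to 2.65 RPKM in stranded tissue and from 5.84 to 9.52 RPKM in nuclear pools. On chromosome 17, ncRNA_intra_chr17_13894 (36168182-36203638, plus strand) had 0 reads in the 4 stranded libraries, 2.57 RPKM in unstranded whole tissue and 2.50 to 9.34 RPKM in the nuclear pools. Of the 15 most abundant members it alone was missing from the stranded libraries, as ncRNA_intra_chr16_13383 alone was missing from the unstranded ones.

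**Figure D1:**
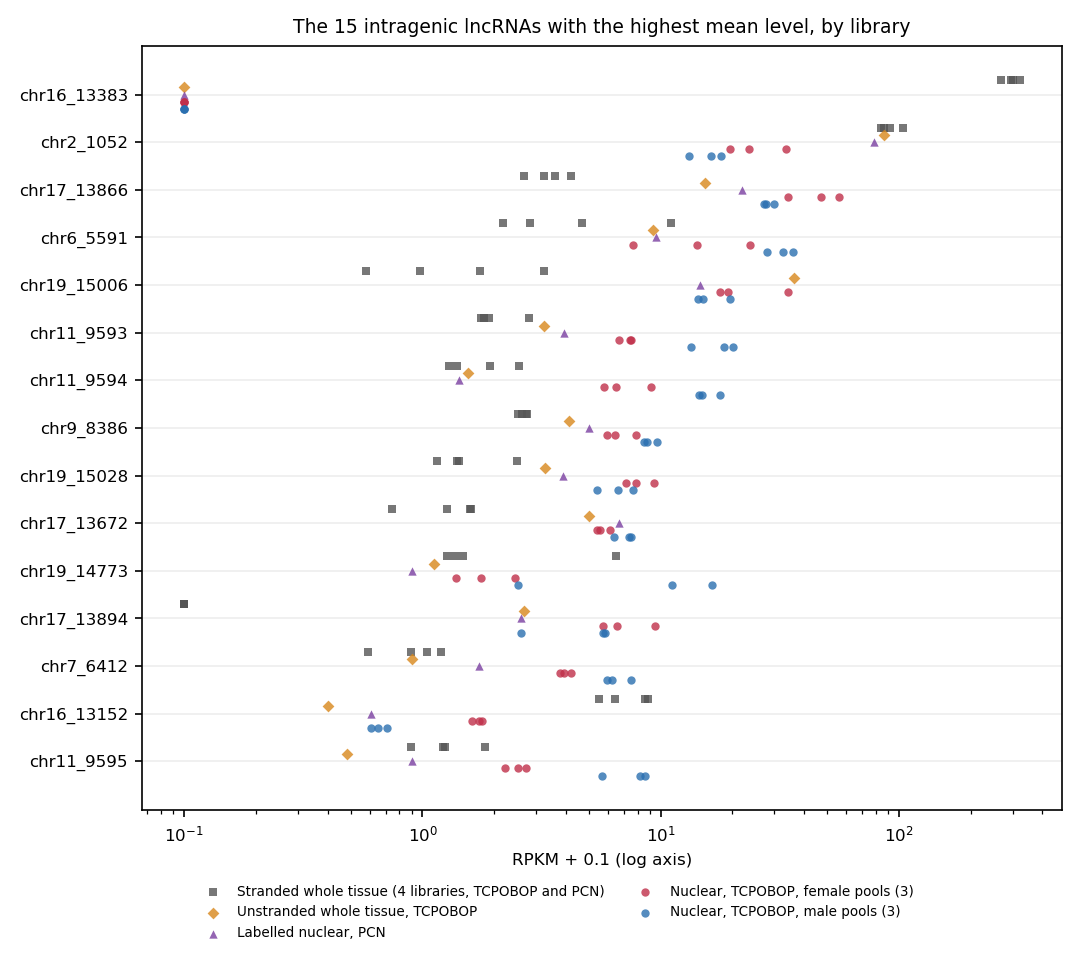
RPKM + 0.1 on a log axis for the 15 intragenic lncRNAs with the highest mean level over the 12 libraries, 1 point per library, coloured by group. The topmost entry lies between 268 and 323 RPKM in the 4 stranded libraries and at 0 in the 8 unstranded ones, while the second lies at 78.4 RPKM or more in all 6 libraries of experiment G81 and at 33.5 RPKM or less in the nuclear pools.

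The rule's boundary was set by position and not by level. The nearest member to a region was ncRNA_intra_chr15_12782 (chromosome 15, 82720913-82728891), 20913 bases outside, with a mean of 0.0270 RPKM. The nearest entry inside that region, ncRNA_intra_chr15_12771, had a mean of 1.60 RPKM. On chromosome 19, ncRNA_intra_chr19_15006 (39723892-39965167) lay 94833 bases outside with a mean of 14.7 RPKM, and ncRNA_intra_chr19_15016 inside had a mean of 86.9 RPKM.

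Female and male nuclear RNA after TCPOBOP differed for 13 members at 13 loci, 7 higher in females and 6 higher in males. ncRNA_intra_chr7_6001 had reads in the female pools alone, and 3 neighbouring members on chromosome 11 had male means of 2.22 to 3.08 times the female means. Sex goes with the experiment (G86 for females, G95 for males) and with depth, at 22.9 to 32.0 M reads per female pool and 7.31 to 11.9 M per male pool. Sex and experiment cannot be told apart here, and the part of depth was not tested.

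The test was limma on log2(RPKM + 0.1), with p-values adjusted by Benjamini and Hochberg over all 5951 lncRNAs tested and a call at an adjusted p under 0.05. Of the 188 members, 92 passed the filter of 0.1 RPKM in 3 of the 6 pools and 96 did not. Of the 7 higher in females, ncRNA_intra_chr7_6001, ncRNA_intra_chr1_732 and ncRNA_intra_chr19_15162 were under 0.1 RPKM in every male pool, so they passed the filter through the female pools alone and could only have been called higher there. Their values are given as a description, with no p. The 13 called members, these 3 included, were 14.1% of the 92, beside 8.79% of all lncRNAs tested. Higher in females were 3.92% of all lncRNAs tested, and lower 4.87%. The pools of the sexes did not overlap for 34 of the 92 members (37.0%) and for 31.3% of all lncRNAs tested. The members' median log2 difference, female minus male, was -0.02, and that of all lncRNAs was -0.09. With library medians set equal the latter moved to 0.05 and the split of all calls moved from 233 higher and 290 lower to 307 and 218, while the 13 member calls became 8 higher and 5 lower. With limma-voom on the recovered reads, 4 members were higher and 11 lower.

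The largest difference toward females was that of ncRNA_intra_chr19_15008 (chromosome 19, 39861396-39935056, minus strand). It read 0.678, 4.20 and 8.00 RPKM in the female pools and 0.113, 0.331 and 0.204 RPKM in the male pools. Its female mean was 4.29 ± 3.66 RPKM (SD, n = 3) and its male mean 0.216 ± 0.109 RPKM (SD, n = 3), a difference of 3.31 ± 0.77 in log2 (SE; adjusted p = 0.0386 by limma). The groups did not overlap, but the female pools spread widely, and the call was lost without female pool 2 or 3 or any 1 of the male pools, with a highest adjusted p of 0.119. It was also lost with either other pseudocount, with no filter and with limma-voom, so that 5 of 14 alternatives called it. Both unstranded G81 male libraries held at most 1 read of it. Its span overlaps that of ncRNA_intra_chr19_15006 on the same strand.

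Reads of ncRNA_intra_chr7_6001 (chromosome 7, 26855254-26965199, plus strand) were found in no library but the female pools. They read 0.573, 0.785 and 0.627 RPKM, from 4, 7 and 4 reads, and the 9 other libraries held 0 reads. Against the limit of 3 reads over the 3 male pools together (0.360 RPKM), the female mean of 0.662 ± 0.110 RPKM (SD, n = 3) was at least 1.84-fold higher. The call was lost with limma-voom on the reads.

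A deeper contrast was given by ncRNA_intra_chr19_15162 (chromosome 19, 57272428-57277142, minus strand), with 73, 74 and 67 reads in the female pools and 3, 0 and 4 in the male pools. It read 0.619, 0.491 and 0.622 RPKM in females and 0.0596, 0 and 0.0713 RPKM in males. Female and male means were 0.577 ± 0.0749 and 0.0436 ± 0.0382 RPKM (SD, n = 3), without overlap. The stranded libraries held at most 1 read each, so its reads came almost wholly from the unstranded libraries. The unstranded G81 males read it at 0.332 RPKM in whole tissue (63 reads) and 0.184 RPKM in the library labelled nuclear PCN. Both values lay between the male and the female pools.

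Of the other 4 members higher in females, ncRNA_intra_chr16_13152 (chromosome 16, 23019191-23065404, plus strand) was the steadiest. Its pools read 1.68, 1.63 and 1.51 RPKM in females and 0.611, 0.510 and 0.549 RPKM in males, a difference of 1.38 ± 0.18 in log2 (SE; adjusted p = 0.00456 by limma), called in all 14 alternative fits. Its level in stranded male whole tissue, 5.41 to 8.78 RPKM, was above every nuclear pool of either sex. ncRNA_intra_chr2_1796 (chromosome 2, 144091718-144091938, minus strand) read 2.53, 1.70 and 1.58 RPKM in females and 0.847, 0.619 and 0.761 RPKM in males (log2 difference 1.26 ± 0.24 SE, limma adjusted p = 0.0186). This call was lost without female pool 1 or 2 (adjusted p up to 0.0662) and with limma-voom (adjusted p = 0.239). The G81 males read ncRNA_intra_chr2_1796 at 1.01 RPKM in unstranded whole tissue and 2.27 RPKM in the library labelled nuclear PCN. Both were above every male pool, and the latter was also above female pools 2 and 3.

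The remaining 2 rest on few reads. ncRNA_intra_chr3_2595 (chromosome 3, 95685542-95685775, minus strand) read 1.71, 0.535 and 0.935 RPKM in females, from 10, 4 and 5 reads, and 0, 0 and 0.359 RPKM in males (limma adjusted p = 0.0438). ncRNA_intra_chr1_732 (chromosome 1, 162891718-162893065, plus strand) read 0.537, 0.735 and 0.147 RPKM in females, from 4, 7 and 1 reads, and 0 in the male pools. The G81 males read ncRNA_intra_chr1_732 at 1.58 RPKM in unstranded whole tissue and 1.38 RPKM in the library labelled nuclear PCN, above every female pool. Neither call was stable, since 4 of 13 alternatives called the former (adjusted p up to 0.168) and 4 of 10 the latter. For the former, leaving out female pool 1, 2 or 3 or male pool 1 or 2 ended the call (adjusted p up to 0.164), as did leaving out male pool 1, 2 or 3 for the latter.

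Higher in males were 3 neighbours on the minus strand of chromosome 11, within 4761 bases at 30880594-30885354. The first, ncRNA_intra_chr11_9593, read 6.57, 7.39 and 7.31 RPKM in the female pools and 18.3, 20.1 and 13.3 RPKM in the male pools (log2 difference -1.25 ± 0.19 SE, limma adjusted p = 0.00735). The second, ncRNA_intra_chr11_9594, read 5.67, 8.99 and 6.38 RPKM against 17.6, 14.8 and 14.4 RPKM (log2 difference -1.16 ± 0.20 SE, limma adjusted p = 0.0138). The third, ncRNA_intra_chr11_9595, read 2.12, 2.63 and 2.42 RPKM against 8.08, 8.47 and 5.58 RPKM (log2 difference -1.57 ± 0.20 SE, limma adjusted p = 0.00425). Every male pool was above every female pool for each of them. The 3 entries do not overlap, but they lie close together on the same strand, and whether they are parts of 1 transcript was not tested. The call of the second was lost without female pool 1 or 3 or male pool 1 (adjusted p up to 0.0625). Over the 3 together there were 1083 reads in the 12 libraries.

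The other 3 members higher in males lay apart. ncRNA_intra_chr2_1057 (chromosome 2, 6121179-6126028, minus strand) read 1.94, 2.74 and 2.33 RPKM in females and 7.05, 4.06 and 5.61 RPKM in males, from 144 to 425 reads a pool (limma adjusted p = 0.0223). ncRNA_intra_chr15_12715 (chromosome 15, 77221669-77359306, plus strand) read 0.763, 0.540 and 0.517 RPKM against 2.04, 1.24 and 2.60 RPKM (limma adjusted p = 0.0209). ncRNA_intra_chr7_6412 (chromosome 7, 106840666-106843338, minus strand) read 3.85, 4.11 and 3.67 RPKM against 6.17, 5.83 and 7.42 RPKM, with the smallest difference of the 13 (log2 difference -0.72 ± 0.16 SE, limma adjusted p = 0.0326). Each of these 3 calls was lost without female pool 1, female pool 3, male pool 1 or male pool 3, with an adjusted p of up to 0.0898, 0.0829 and 0.131, and the last 2 also without female pool 2. The first was lost with the replicate block too, and the last with the block, with no filter and with library medians set equal, so that 6 of 14 alternatives called it.

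**Figure D2:**
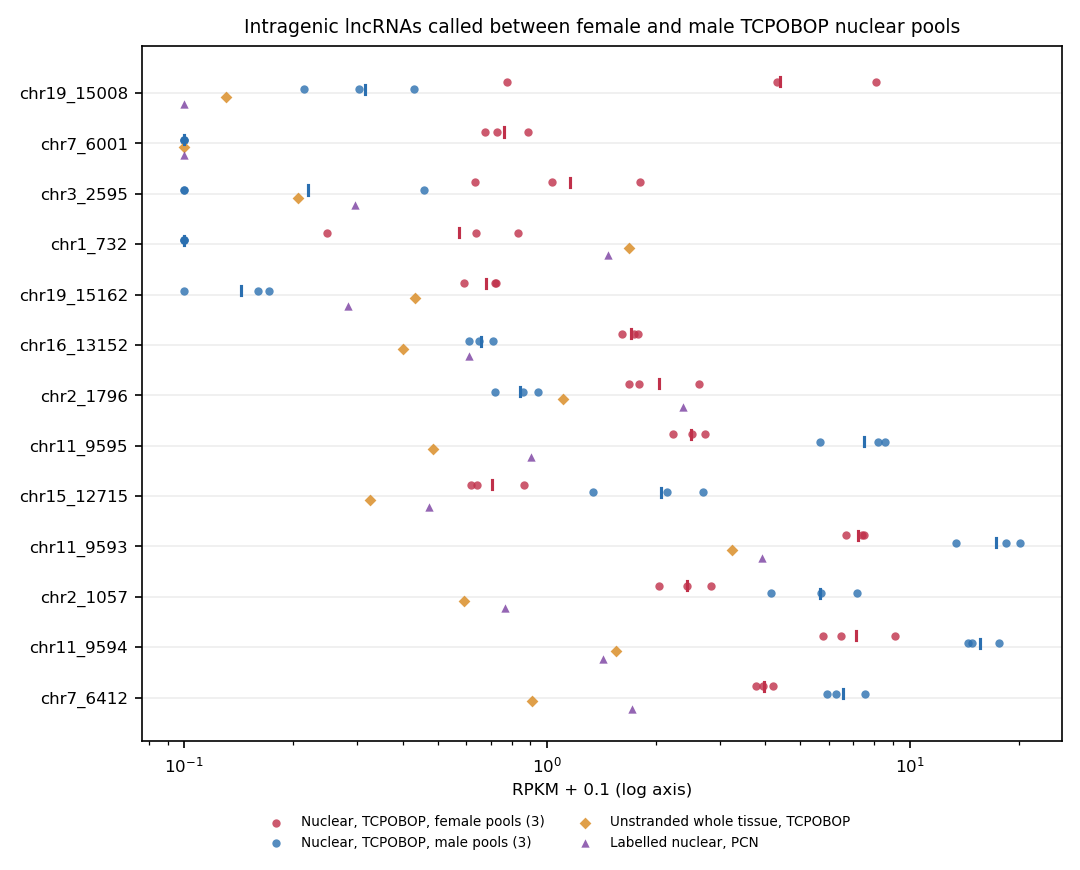
RPKM + 0.1 on a log axis for the 13 intragenic lncRNAs called between female and male nuclear pools 3 h after TCPOBOP. Points are pools, vertical bars are group means (n = 3), and the 2 unstranded G81 male libraries are drawn beside them; the pools of the sexes do not overlap in any row, and for the 6 members higher in males the G81 male libraries lie below the lowest female pool.

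The unstranded male libraries of experiment G81 give male values from another experiment, although in whole tissue or under PCN. For 4 of the 7 members higher in females, both lay nearer to the mean of the male pools. For 0 of the 6 members higher in males did they, and for all 6 both lay below the lowest female pool. Leaving out pools changed the number of calls. It was 5, 7 and 4 without female pool 1, 2 or 3, and 6, 12 and 9 without male pool 1, 2 or 3, and 5 of the 13 were called in every fit that left out a pool and still tested them. Among these 5, ncRNA_intra_chr7_6001 and ncRNA_intra_chr19_15162 were no longer tested once a female pool was left out. In 4 cases the call held in every alternative that still tested the member. These were ncRNA_intra_chr19_15162, ncRNA_intra_chr16_13152, ncRNA_intra_chr11_9595 and ncRNA_intra_chr11_9593. The first passed the filter through the female pools alone, so the fits without a female pool could not end its call.

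Male nuclear RNA after TCPOBOP was next set against whole-tissue RNA after TCPOBOP, both without the strand. In this comparison 22 members at 22 loci passed the test, 15 higher in the nuclear pools and 7 higher in whole tissue. The 3 neighbours on chromosome 11 and ncRNA_intra_chr7_6412 were among those higher in nuclei, and ncRNA_intra_chr2_1052 was among those higher in whole tissue. Compartment goes with the experiment (G95 and G81), so the 2 cannot be told apart, and the spread of the single whole-tissue library was taken to be that of the pools. The male pools are the same as in the comparison of the sexes.

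The contrast came from a limma fit of the 8 unstranded libraries, and 104 members passed its filter of 0.1 RPKM in 2 libraries while 84 did not. Calls made up 21.2% of the 104 members, beside 10.3% of all 7401 lncRNAs tested (7.26% higher and 3.07% lower in nuclei). The 22 include ncRNA_intra_chr4_3167, which passed the filter only through libraries where it was high and is described below with no p. The median log2 difference, nuclear minus whole tissue, was 0.59 over the members and 0.27 over all lncRNAs. With library medians set equal these were 0.35 and 0.03, and the member calls became 12 higher and 9 lower. Under quantile normalization the calls were 13 higher and 11 lower. Without male pool 1, 2 or 3 there were 14, 32 and 17 calls, and 13 of the 22, ncRNA_intra_chr4_3167 included, held in every alternative that still tested them. For ncRNA_intra_chr4_3167 and ncRNA_intra_chr1_732 these were 9 of 11 alternatives.

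The chromosome 11 neighbours were all higher in nuclei. ncRNA_intra_chr11_9595 read 8.08, 8.47 and 5.58 RPKM in the male pools and 0.384 RPKM in whole tissue, a male mean of 19.2 times the whole-tissue value (log2 difference 3.92 ± 0.28 SE, limma adjusted p = 0.00293). For ncRNA_intra_chr11_9594 whole tissue held 1.45 RPKM (log2 difference 3.33 ± 0.28 SE, limma adjusted p = 0.00453), and for ncRNA_intra_chr11_9593 it held 3.15 RPKM (log2 difference 2.40 ± 0.25 SE, limma adjusted p = 0.00675). The female nuclear pools of these 3 lay between the male pools and whole tissue, with no overlap with either.

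Similar differences were seen at members on other chromosomes. ncRNA_intra_chr2_1057 read 0.491 RPKM in whole tissue, from 96 reads, and 4.06 to 7.05 RPKM in the male pools (log2 difference 3.23 ± 0.34 SE, limma adjusted p = 0.00675). ncRNA_intra_chr13_11590 (chromosome 13, 91881367-91888701, plus strand) read 0.396 RPKM, from 111 reads, against 4.66, 3.13 and 5.26 RPKM (log2 difference 3.13 ± 0.40 SE, limma adjusted p = 0.0105). ncRNA_intra_chr7_6412 read 0.808 RPKM against 5.83 to 7.42 RPKM, the most precise of these differences (log2 difference 2.85 ± 0.20 SE, limma adjusted p = 0.00253). In each of them every male pool was above the whole-tissue value.

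The lowest whole-tissue level among them was that of ncRNA_intra_chr12_10508 (chromosome 12, 33508981-33511773, plus strand), 0.0178 RPKM from 2 reads. Its male pools read 1.51, 0.832 and 2.68 RPKM (log2 difference 3.77 ± 0.69 SE, limma adjusted p = 0.0241), and its call was lost without male pool 1 (adjusted p = 0.0638) and with a pseudocount of 1 (adjusted p = 0.119). The short ncRNA_intra_chr2_1740 (chromosome 2, 129129320-129129659, minus strand) read 0.292 RPKM from 4 reads against 3.30, 4.02 and 2.47 RPKM (log2 difference 3.08 ± 0.40 SE, limma adjusted p = 0.0106). ncRNA_intra_chr15_12715 and ncRNA_intra_chr11_9901 (chromosome 11, 79331113-79333775, minus strand) read 0.225 and 0.242 RPKM in whole tissue, against male means of 1.96 ± 0.681 and 1.71 ± 0.817 RPKM (SD, n = 3). Both of these calls were lost without male pool 1, and the latter also without male pool 3 (adjusted p up to 0.0529 and 0.0993). The latter was lost as well with a pseudocount of 1, with no filter, with library medians set equal and in the fit of the male pools and the single library alone, and 5 of 11 alternatives called it. The 5 called members beyond these 10 had log2 differences of 1.11 to 1.95.

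Among the 7 members higher in whole tissue, 3 had no read in any male pool. ncRNA_intra_chr11_9610 (chromosome 11, 33654764-33855712, minus strand) read 7.08 RPKM in unstranded whole tissue, from 87 reads, 5.68 RPKM in the library labelled nuclear PCN and 2.00 to 3.26 RPKM in stranded whole tissue. The female nuclear pools held 1, 0 and 1 reads. Whole tissue was at least 21.5-fold higher than the limit of 3 reads over the 3 male pools. All 6 libraries of experiment G81 thus lay above all 6 nuclear pools, as for ncRNA_intra_chr2_1052, whose log2 difference was -2.46 ± 0.33 (SE; limma adjusted p = 0.0114).

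Another member, ncRNA_intra_chr4_3167 (chromosome 4, 42304696-42495497, minus strand), was read in 2 libraries alone. It read 3.20 RPKM in unstranded whole tissue, from 28 reads, and 2.73 RPKM in the library labelled nuclear PCN, from 13 reads. Whole tissue was at least 6.92-fold higher than the limit over the male pools. It passed the filter only through these 2 libraries, where it was high, and all replicated pools were at 0, so no p is given for it. ncRNA_intra_chr1_732 was at least 4.70-fold higher in whole tissue than that limit, with every male pool at 0.

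The remaining 3 had reads in every male pool. ncRNA_intra_chr19_15086 (chromosome 19, 46535923-46538823, plus strand) read 1.26 RPKM in whole tissue and 0.0968, 0.0471 and 0.232 RPKM in the male pools. ncRNA_intra_chr11_9772 (chromosome 11, 60150378-60154058, minus strand) read 0.566 RPKM against 0.0763, 0.111 and 0.0457 RPKM. ncRNA_intra_chr15_12914 (chromosome 15, 100428614-100429742, minus strand) read 4.31 RPKM against 1.74, 1.82 and 1.79 RPKM. The limma adjusted p was 0.0270, 0.0246 and 0.0192 in turn. Each of these calls was lost without male pool 1, and the last also without male pool 3 (adjusted p up to 0.0679, 0.0555 and 0.0529). The first 2 were also lost in the fit of the male pools and the single library alone, where the adjusted p of ncRNA_intra_chr11_9772 was 0.128.

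**Figure D3:**
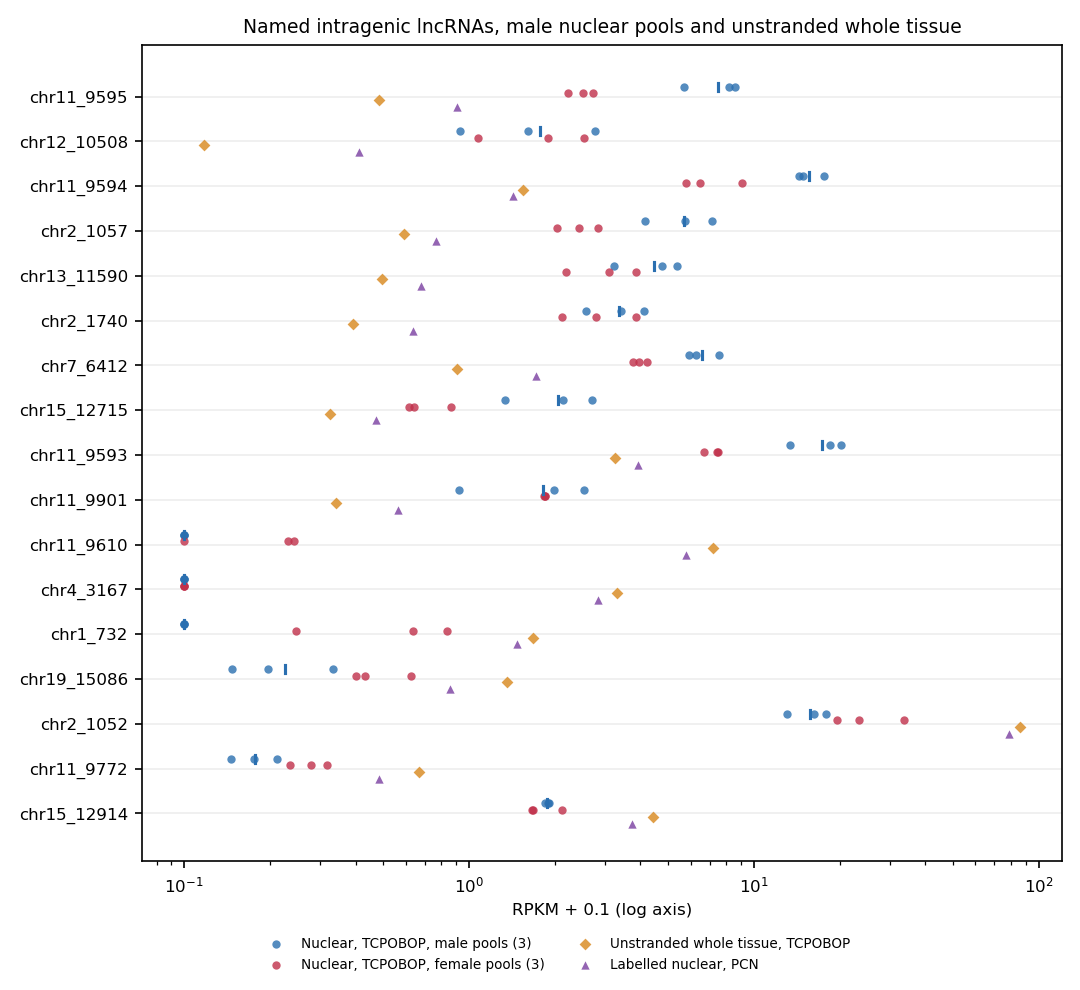
RPKM + 0.1 on a log axis for the 17 named intragenic lncRNAs called between the male nuclear pools and unstranded whole tissue 3 h after TCPOBOP, 10 higher in nuclei above and 7 higher in whole tissue at the foot. Points are libraries and vertical bars are means of the male pools (n = 3); the library labelled nuclear PCN lies on the whole-tissue side of the male pools in each row, and the female pools are drawn for reference.

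Between the male TCPOBOP pools and the library labelled nuclear PCN, 13 of 104 tested members differed, 8 higher and 5 lower in the TCPOBOP pools. That is 12.5% of the members, ncRNA_intra_chr4_3167 included, beside 4.27% of all 7401 lncRNAs tested (2.86% higher and 1.41% lower). The agonist, the experiment and the whole-tissue likeness of the PCN library cannot be told apart, and the male pools are shared with the comparisons above. Median log2 differences were 0.27 over the members and 0.25 over all lncRNAs. With library medians set equal the latter was 0.00 and the member calls were 7 higher and 7 lower, and under quantile normalization 7 and 8. Without male pool 1, 2 or 3 there were 7, 18 and 8 calls, and 7 of the 13 held in every alternative that still tested them.

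The PCN library read the 3 chromosome 11 neighbours at 3.81, 1.33 and 0.807 RPKM, against male means of 17.3 ± 3.52, 15.6 ± 1.73 and 7.38 ± 1.57 RPKM (SD, n = 3), with a limma adjusted p of 0.0146, 0.00597 and 0.00749. It also read ncRNA_intra_chr2_1057 at 0.667 RPKM and ncRNA_intra_chr7_6412 at 1.62 RPKM, both lower than the male pools (limma adjusted p = 0.0146 and 0.00961). In unstranded whole tissue the same 5 read 3.15, 1.45, 0.384, 0.491 and 0.808 RPKM, on the same side of the male pools. Also lower than the pools were ncRNA_intra_chr13_11590 (0.577 RPKM, limma adjusted p = 0.0259), ncRNA_intra_chr2_1740 (0.536 RPKM, limma adjusted p = 0.0341) and ncRNA_intra_chr16_13101 (chromosome 16, 17042881-17057338; 0.339 RPKM against 1.46, 0.921 and 1.28 RPKM). Without male pool 1 or 3 these last 3 calls were lost, as was that of ncRNA_intra_chr2_1740 without male pool 2 (adjusted p up to 0.0798, 0.0883 and 0.103). The call of ncRNA_intra_chr2_1740 was held by 6 of 11 alternatives and that of ncRNA_intra_chr16_13101 by 3 of 10.

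A member that set the PCN library apart from whole tissue as well was ncRNA_intra_chr11_9623 (chromosome 11, 35767205-35772382, minus strand). It read 3.01 RPKM from 342 reads after PCN, 0.181, 0.106 and 0.406 RPKM in the male TCPOBOP pools, and 0.0815 RPKM in unstranded whole tissue after TCPOBOP. The log2 difference, TCPOBOP minus PCN, was -3.34 ± 0.55 (SE; limma adjusted p = 0.0338), and the call was lost without male pool 1 (adjusted p = 0.0863). In stranded whole tissue the same member read 0.0526 and 0.0693 RPKM after TCPOBOP and 0.0902 and 0.130 RPKM after PCN, at 3 h and 6 h, from 7 to 17 reads. Neither PCN library of stranded whole tissue was as high as the library labelled nuclear. The other members higher in the library labelled nuclear PCN than in the male pools were ncRNA_intra_chr11_9610, ncRNA_intra_chr4_3167, ncRNA_intra_chr1_732 and ncRNA_intra_chr2_1052, with the values given above. Each of them was higher still in unstranded whole tissue after TCPOBOP. Of these, the call of ncRNA_intra_chr1_732 was lost without any male pool and that of ncRNA_intra_chr2_1052 without male pool 1 or 3 (adjusted p up to 0.0868 and 0.0680).

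In stranded whole tissue, where both agonists were taken at both times, no member passed the test for the agonist or for the time. Time after injection goes with the hour of the day, so they cannot be told apart. Each of the 4 libraries is a group of its own, so the error is the agonist-by-time interaction with 1 residual degree of freedom, and the p-values measure no spread between pools. Of the 188 members, 59 passed the filter of 0.1 RPKM in 2 of the 4 libraries and 129 did not. For TCPOBOP against PCN, limma called 0 of 2270 lncRNAs (0%) and 0 of the 59 members, while 7.14% of all and 4 members had an unadjusted p under 0.05. Limma-voom called 0 members as well. For 6 h against 3 h, limma called 0 of 2270 (0%) and 0 members, with 12% of all and 7 members at an unadjusted p under 0.05, and limma-voom called 0 members. The median log2 difference for time, 6 h minus 3 h, was -0.15 over the members and -0.16 over all lncRNAs, and with medians set equal it was 0.01 and 0.00.

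On RPKM + 0.1, in both pairs of libraries at least 2-fold higher after TCPOBOP were 2 of the 59 members, and at least 2-fold lower was 1, beside 1.94% and 1.54% of all lncRNAs tested. These were ncRNA_intra_chr17_13887 and ncRNA_intra_chr13_11514 (higher) and ncRNA_intra_chr14_12081 (lower), with 4, 15 and 12 reads over the 4 libraries. At 6 h 2 members were at least 2-fold higher with both agonists and 3 at least 2-fold lower, beside 2.16% and 3.83% of all. Of these, ncRNA_intra_chr13_11514 and ncRNA_intra_chr3_2595 (higher) and ncRNA_intra_chr7_5992 (lower) held 15, 11 and 4 reads, while ncRNA_intra_chr19_15006 and ncRNA_intra_chr6_5591 (lower) held 634 and 201. The sign was the same in both pairs for 26 of the 59 members by agonist (50.9% of all lncRNAs) and for 29 by time (56.7% of all).

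By time, the deepest of the named members was ncRNA_intra_chr19_15006, with 634 reads in the 4 libraries. It read 3.14 RPKM at 3 h and 0.877 RPKM at 6 h after TCPOBOP, and 1.65 and 0.480 RPKM after PCN. Both 6 h values were below both 3 h values, with a difference of -1.66 ± 0.21 in log2 (SE; adjusted p = 0.328 by limma). By agonist the TCPOBOP value was the higher at each time, with a difference of 0.82 ± 0.21 in log2 (SE; adjusted p = 0.638 by limma).

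The same order was seen for ncRNA_intra_chr6_5591, at 10.9 and 2.73 RPKM at 3 h and 6 h after TCPOBOP and 4.58 and 2.08 RPKM after PCN. Its log2 difference was -1.53 ± 0.31 for time (SE; limma adjusted p = 0.354) and 0.80 ± 0.31 for the agonist (SE; limma adjusted p = 0.686). ncRNA_intra_chr15_12911 (chromosome 15, 100157892-100181381, plus strand) read 0.198 and 0.0547 RPKM after TCPOBOP and 0.504 and 0.0504 RPKM after PCN, also with both 6 h values below both 3 h values (limma adjusted p = 0.368). For ncRNA_intra_chr19_14773 (chromosome 19, 8145009-8243249, minus strand) the difference lay in 1 library, which read 6.41 RPKM at 3 h after PCN while the other 3 read 1.17 to 1.37 RPKM. ncRNA_intra_chr2_1740 read 1.03 and 0.845 RPKM after TCPOBOP and 0.686 and 0.117 RPKM after PCN, and counted among the named members of both effects.

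Among the named members, which have 20 or more reads in the 4 libraries, differences toward 6 h were smaller. ncRNA_intra_chr12_10508 read 0.265 and 0.874 RPKM at 3 h and 6 h after TCPOBOP and 0.404 and 0.484 RPKM after PCN. ncRNA_intra_chr16_13186 (chromosome 16, 26714087-26714785, plus strand) read 0.278 and 0.411 RPKM, then 0.111 and 0.512 RPKM, from 2 to 9 reads. The other named members, ncRNA_intra_chr19_15028, ncRNA_intra_chr8_6801 and ncRNA_intra_chr17_13867, had log2 differences of 0.57, 0.17 and 0.15. None of the 5 reached an adjusted p under 0.474 by limma.

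Among members with 20 or more reads and the same sign in both pairs, the lowest after TCPOBOP relative to PCN was ncRNA_intra_chr17_13896 (chromosome 17, 36182965-36215667, minus strand), at 0.330 and 0.488 RPKM after TCPOBOP and 1.32 and 0.809 RPKM after PCN, at 3 h and 6 h. Both TCPOBOP values were below both PCN values, from 5 to 20 reads a library (log2 difference -1.18 ± 0.39 SE, limma adjusted p = 0.678). The same held for ncRNA_intra_chr16_12989 (chromosome 16, 4643617-4644700), at 0.215 and 0.331 RPKM against 0.754 and 0.440 RPKM. ncRNA_intra_chr8_6801, ncRNA_intra_chr14_12103 and ncRNA_intra_chr13_11545 had log2 differences of -0.70, -0.59 and -0.54, and the remaining higher members, ncRNA_intra_chr6_5593 and ncRNA_intra_chr5_4691, 0.66 and 0.50. The adjusted p of these 7 lay between 0.678 and 0.797 by limma.

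**Figure D4:**
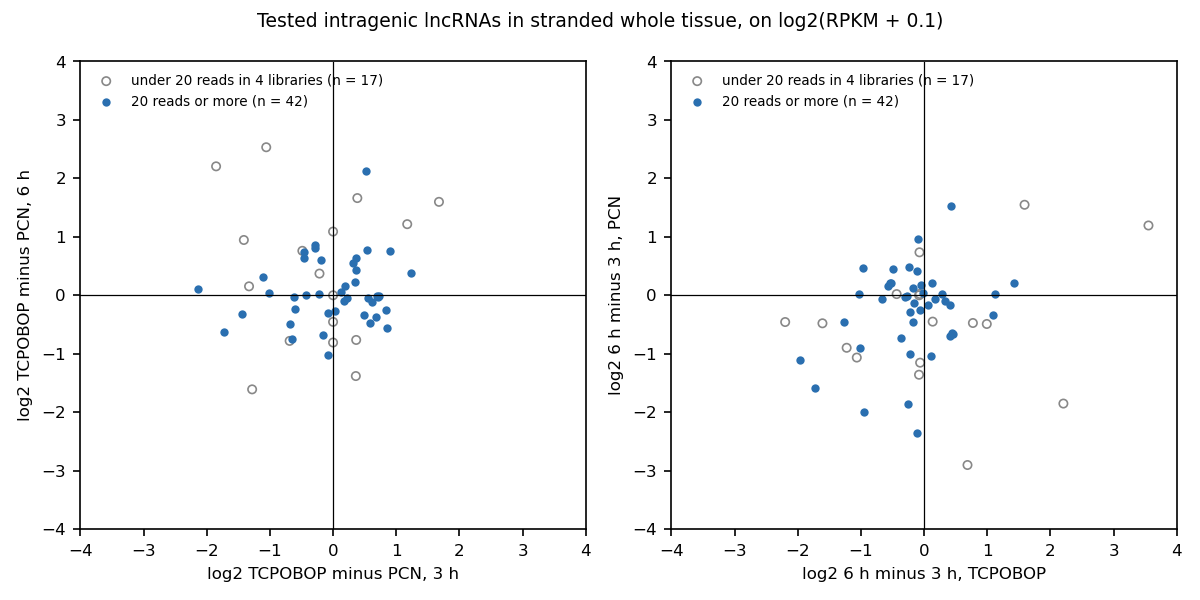
Log2 differences on log2(RPKM + 0.1) for the 59 tested intragenic lncRNAs in stranded whole tissue, with TCPOBOP minus PCN at 3 h against 6 h on the left and 6 h minus 3 h after TCPOBOP against PCN on the right. Filled points have 20 or more reads over the 4 libraries (42 members) and open points fewer (17); 26 members share their sign between the 2 times on the left, and 29 between the 2 agonists on the right.

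Of the 154 members above 0, 109 were above 0 both with and without the strand. The unstranded and the stranded whole-tissue libraries, both of 6 male livers 3 h after TCPOBOP in experiment G81, are 1 library each and have no test. Of 47 members with at least 0.5 RPKM in either, 21 were at least 4-fold apart, 16 higher without the strand and 5 higher with it (141 members were below that level in both). That is 44.7% of the members, beside 64.6% of all 1933 lncRNAs compared (55.8% higher and 8.85% lower without the strand). The median log2 difference, unstranded minus stranded, was 1.31 over the members and 2.24 over all. The libraries also differ in the share of all reads that fell in lncRNAs, at 0.794% to 0.918% in the stranded and 3.78% to 5.09% in the unstranded libraries. With library medians set equal the medians were -0.75 and 0.18, and 20 members were at least 4-fold apart, 4 higher and 16 lower without the strand, so the direction of the count depends on the scaling. The members took 3.20% to 3.51% of the lncRNA reads in stranded libraries and 0.636% to 0.825% in unstranded ones. Most of the members' stranded reads were of ncRNA_intra_chr16_13383, which had none without the strand. It held 4427 of 7545 reads at 3 h after TCPOBOP and 4645 of 7125 reads at 6 h after PCN.

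Far higher without the strand was ncRNA_intra_chr19_15006, at 36.3 RPKM from 5812 reads against 3.14 RPKM from 321 reads, an 11.6-fold difference. ncRNA_intra_chr8_7686 (chromosome 8, 130891688-130895991, plus strand) read 3.26 RPKM from 566 reads against 0.0813 RPKM from 9 reads, the widest of these ratios with reads on both sides. The member without a given strand, ncRNA_intra_chr18_14591 (chromosome 18, 64504673-64505535), read 4.29 RPKM against 0.180 RPKM, 23.8-fold apart from 149 and 4 reads. ncRNA_intra_chr19_15086 read 1.26 RPKM against 0.0402 RPKM, from 147 and 3 reads, and ncRNA_intra_chr4_3167 read 3.20 RPKM against 0 reads, at least 5.95-fold apart. With library medians set equal these 5 kept their direction, but their differences were smaller. On RPKM + 0.1, ncRNA_intra_chr19_15006, ncRNA_intra_chr18_14591 and ncRNA_intra_chr19_15086 were then under 4-fold.

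Far higher with the strand kept, beside ncRNA_intra_chr16_13383 at a bound of at least 2313-fold, was ncRNA_intra_chr17_13867 (chromosome 17, 34113650-34135532, minus strand). It read 3.19 to 3.90 RPKM, from 28 to 37 reads, in the stranded libraries and 0 reads in all 8 unstranded ones. Its span overlaps nearly the whole of ncRNA_intra_chr17_13866 on the same strand, which was read in every library, and 2 entries on the opposite strand. ncRNA_intra_chr16_13152 read 6.35 RPKM from 175 reads against 0.301 RPKM from 13 reads, 21.1-fold apart. ncRNA_intra_chr2_1918 (chromosome 2, 157388245-157391547, minus strand) read 0.660 RPKM from 56 reads against 0 reads, at least 29.3-fold apart, and the other 7 unstranded libraries held at most 2 reads each. ncRNA_intra_chr11_9595 read 1.72 RPKM against 0.384 RPKM, 4.48-fold apart.

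**Figure D5:**
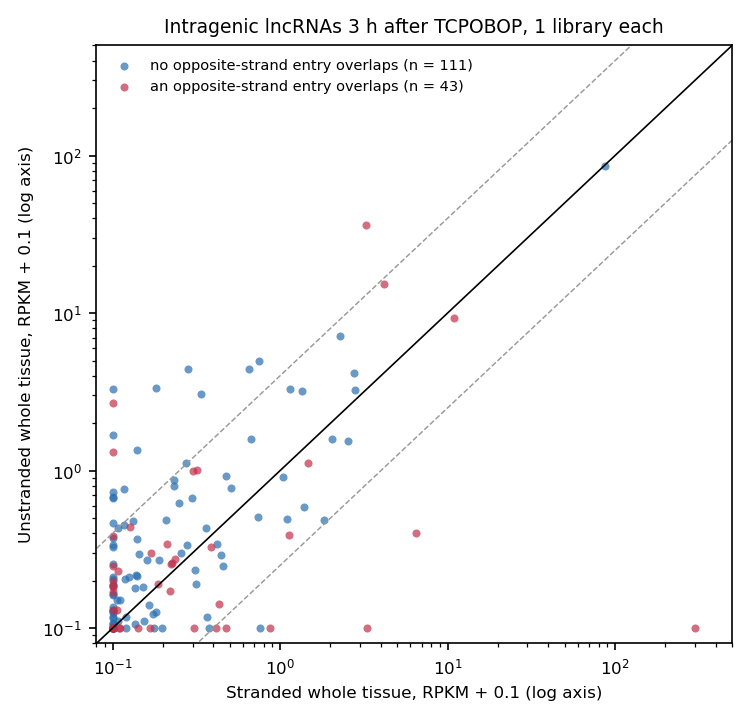
RPKM + 0.1 in unstranded against stranded whole tissue 3 h after TCPOBOP, both on log axes, 1 library each, for the 154 intragenic lncRNAs above 0 in any library. The solid line marks equal values and the dashed lines 4-fold differences; red points (43) overlap an entry on the opposite strand and blue points (111) do not, and the point at the right edge is at 301 RPKM with the strand and 0 without it.

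Members seen in stranded libraries alone mostly lay opposite another entry of the table. Of the 9 members above 0 in stranded libraries alone, 7 (77.8%) overlapped an entry on the opposite strand. Among the 36 members above 0 in unstranded libraries alone this share was 22.2% (8 members), and among the 109 above 0 in both it was 25.7% (28 members). Over the whole table the shares were 25.3%, 6.54% and 8.45%. Of the 9, the members with 20 or more reads were ncRNA_intra_chr16_13383, ncRNA_intra_chr17_13867, ncRNA_intra_chr5_4691 (chromosome 5, 139845159-139848073) with 77 reads, and ncRNA_intra_chr16_13186, which overlaps no opposite entry, with 24 reads. Of the 36 members seen without the strand alone, 8 had 20 or more reads, and the deepest was ncRNA_intra_chr19_15008 with 282. How the authors' counting treats reads under 2 overlapping entries is not given in the sources used here, and its part in these shares was not tested.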

How the data were processed

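The authors deposited 1 table of RPKM values for 15558 lncRNAs, per the file headers, each with its mm9 position, its strand and an identifier that gives its class. Reads were aligned with TopHat2 to mm9, per the submitters' processing notes, while how reads were counted, with which strand setting and on which annotation is not given in the sources used here. The 12 columns named like a sample were read, and 13 of the 25 value columns were not used here. The sample labels describe pools of livers, so p-values in the replicated groups measure the spread between pools. The members and lists were chosen with earlier results of these data known.

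Reads were recovered from the steps of the values by finding each library's read total and each entry's length, and all 89242 non-zero values came out whole (100%, tolerance 1e-05 of a read). The length was the full span where that gave whole reads, and otherwise the smallest length that did. For entries with a shorter length the 100% is therefore no check, and their lengths and reads are the smallest that fit. A count of 0 allows up to 3 reads. This limit covers counting error alone, because sequenced copies of a molecule were not marked. Each comparison with a test was a fit over the whole table of log2(RPKM + 0.1), by limma (version 3.58.1, R version 4.3.3) with its trend option and p-values adjusted after Benjamini and Hochberg. The code was tested on simulated data. Fold changes on that scale understate the change of low lncRNAs, and ratios in the text are of RPKM. Alternatives were other pseudocounts, filters and scalings, limma-voom on the recovered reads, other sets of libraries for the spread, a replicate block and leaving out each pool. Coordinates are the deposited mm9 positions. The reference supplied was of another build, so no surrounding gene is named and no sequence is given.

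The named lncRNAs were the 15 members with the highest mean RPKM. To these were added up to 10 higher and 10 lower called members by log2 difference, without overlap between the groups, in each comparison with calls. Where there were no calls or no test, 5 higher and 5 lower members with at least 20 reads were named, for agonist and time only where both pairs of libraries had the same sign. Members whose spans overlap were counted as 1 locus.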

Additional observations from a re-analysis of the deposited data

How the results depend on the processing

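Counts of called members were recomputed under each alternative. Leaving out 1 pool at a time gave 4 to 12 calls between the sexes (13 with all pools), 7 to 18 against the library labelled nuclear PCN (13) and 14 to 32 against unstranded whole tissue (22). The calls against the library labelled nuclear PCN rose to 20 with a pseudocount of 0.01 and to 23 with limma-voom on the recovered reads, and those against whole tissue rose to 43 with limma-voom. In stranded whole tissue, where no member was called, a filter of mean RPKM of at least 1 gave 1 call by agonist and 3 by time, and a spread taken from all 12 libraries gave 5 and 8. Members at least 4-fold apart between unstranded and stranded whole tissue numbered 21 on RPKM + 0.1, and 6 with a pseudocount of 1. The causes of these changes were not tested. The other alternatives kept each count within 1.5 times its value. Pool numbers were shared by the sexes in the labels, but same-numbered pools did not deviate together (correlations of -0.0176, -0.0742 and -0.000223 over 5951 lncRNAs), and a fit with the replicate block called 12 members, 8 higher and 4 lower in females. Of 682 values of named members under the alternatives, 584 kept their direction and their side of the threshold or moved by less than their error, 84 lost the call, 6 gained it, 8 moved in size and 0 changed sign. Of the 84, 49 were between the sexes, where 120 values were kept. The library labelled nuclear PCN gave 20 and whole tissue 15. The agonist and time comparisons, with no call to lose, gave 72 and 70 of the 584. Depth limits the members at low levels, and most of all in the male nuclear pools, with 7.31 to 11.9 M reads each.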
